A study of Mus musculus with 20 samples.

Results

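Hepatic lipogenesis was examined through 10 genes, 3 regulators and 7 enzymes of fatty acid synthesis, in 20 mouse liver libraries of polyA RNA. The genes were taken by symbol from the count table, which holds 55421 genes, and each of the 10 matched exactly 1 entry and passed the filter of at least 10 counts in total, as did 22867 genes in all. Wildtype C57BL/6 mice received, at 6 months of age and by retro-orbital injection, an AAV8 vector that carries Staphylococcus aureus Cas9 under the Tbg promoter, which is active in hepatocytes, and a U6-driven guide RNA. The guide targeted HIRA (HIRA group), the histone H3.3 chaperone, or the Rosa26 locus (Rosa26 group), so that controls carried vector, Cas9 and guide too. Livers were harvested 3 weeks or 6 months after injection, with 5 libraries in each of the 4 groups. The labels give female mice, as does a figure legend of the study, but its text calls the time course animals male. Sex-linked transcripts, given below, had the female pattern in every library except HIRA 6 months replicate 5. The hour of harvest was not given in the sources used here. The libraries were made from whole liver, in which only hepatocytes are reached by the promoter, and fewer cells of a type and less RNA per cell cannot be told apart.

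In lipogenesis, cytosolic citrate is cleaved to acetyl-CoA, acetyl-CoA is carboxylated to malonyl-CoA, and fatty acid synthase builds palmitate from both with NADPH as the reductant. Elongases and desaturases then turn palmitate into longer and monounsaturated chains that enter triglycerides and membranes. In liver the pathway is driven after feeding by insulin through the transcription factor SREBP-1c, the product of Srebf1, and by glucose through ChREBP, the product of Mlxipl. It is also known for a daily rhythm that follows feeding and the circadian clock.

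The loci lie on several chromosomes (GRCm38, GENCODE M21). Srebf1 (ENSMUSG00000020538.15) spans chr11:60199089-60222581 on the minus strand and Mlxipl (ENSMUSG00000005373.13) chr5:135089890-135138382 on the plus strand. Thrsp (ENSMUSG00000035686.8), which encodes the thyroid hormone responsive protein Spot 14, spans chr7:97412938-97417730 on the minus strand. Of the enzymes, Acly (ENSMUSG00000020917.17) lies at chr11:100476353-100528000, Fasn (ENSMUSG00000025153.9) at chr11:120805846-120824547, Scd1 (ENSMUSG00000037071.3) at chr19:44394455-44407879 and Me1 (ENSMUSG00000032418.15) at chr9:86581371-86695953, all on the minus strand. Acaca (ENSMUSG00000020532.18) at chr11:84129672-84401651, Acacb (ENSMUSG00000042010.16) at chr5:114146535-114250761 and Elovl6 (ENSMUSG00000041220.10) at chr3:129532355-129638495 lie on the plus strand.

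The promoters of Fasn and Acly, a pair of enzyme genes that varied together across livers, and of the regulator Mlxipl, whose correlation with them did not pass the test, are shown first. Each is the 250 bases before the start of transcription that RefSeq gives (GRCm38.p6), read 5′ to 3′ on the strand of the gene, and none overlaps an annotated exon of its own gene. Capitals mark matches on either strand. The CCAAT box was searched as written, the GC box that Sp1 binds as GGGCGG, the palindromic E-box of clock factors as CACGTG and the sterol regulatory element as TCACNCCAC, and its short form, which overlaps the full one where the N is a C, as TCACCC. The windows are Fasn at chr11:120824548-120824797, Acly at chr11:100528001-100528250 and Mlxipl at chr5:135089640-135089889.
Fasn: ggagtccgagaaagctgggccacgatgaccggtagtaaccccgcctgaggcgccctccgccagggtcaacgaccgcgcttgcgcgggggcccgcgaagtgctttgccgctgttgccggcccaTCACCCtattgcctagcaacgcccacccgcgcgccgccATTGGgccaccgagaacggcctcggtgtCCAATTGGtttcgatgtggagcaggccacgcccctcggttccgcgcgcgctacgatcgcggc
Acly: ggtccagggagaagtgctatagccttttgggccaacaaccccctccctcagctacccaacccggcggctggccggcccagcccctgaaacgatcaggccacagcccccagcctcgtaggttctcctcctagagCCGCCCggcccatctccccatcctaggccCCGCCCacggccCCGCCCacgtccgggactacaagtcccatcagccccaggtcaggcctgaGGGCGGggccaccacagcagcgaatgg
Mlxipl: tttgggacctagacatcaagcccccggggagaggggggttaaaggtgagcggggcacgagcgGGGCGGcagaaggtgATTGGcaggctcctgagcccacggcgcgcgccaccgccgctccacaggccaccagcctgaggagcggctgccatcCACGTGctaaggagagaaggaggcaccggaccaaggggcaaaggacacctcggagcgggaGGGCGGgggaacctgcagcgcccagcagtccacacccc

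The Fasn window held 3 CCAAT boxes and 1 short sterol element. Acly had 4 GC boxes. The printed Mlxipl window had 2 GC boxes, 1 CCAAT box and the single E-box found among these genes. A further Mlxipl window, chr5:135106641-135106890, which is not printed, held the only full sterol element among them. For Thrsp, whose window overlaps its own annotated first exon by 180 bases and is not printed, 2 CCAAT boxes were found. RefSeq gave 13 such windows for 9 of the 10 genes, and the CCAAT box was matched in windows of 6 of the 9, the GC box in 4, the short sterol element in 3, the E-box in 1 and the full sterol element in 1. Of all 32851 windows of the same length, 33.8% held a CCAAT box, 32.7% a GC box, 13.8% the short sterol element, 6.02% the E-box and 1.05% the full sterol element. Genes with several windows had more chances of a match, and a match describes the letters only.

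Total counts ranged from 19916430 to 24079736 per library, and the 10 genes together took 0.493 to 1.75% of a library. Single values rested on 1308 to 303906 counts, so that counting error was small beside the differences between livers. Hira, the targeted gene, had 128 to 171 unscaled counts in the Rosa26 group and 87 to 127 in the HIRA group at 3 weeks, and 105 to 157 and 109 to 136 at 6 months, so the ranges overlapped at 6 months. These are counts of mRNA, and the study reported loss of HIRA protein by western blot in its CRISPR livers. One library, HIRA 6 months replicate 5, stood apart by sex-linked transcripts, with 9 counts of Xist against 6286 to 8436 in the other 19 and 2041 counts over 4 Y-linked genes against 13 or fewer. This is the pattern of a male liver, and the other 19 had that of female livers. The library was kept in the main fit. The summed level of 8 hepatocyte markers was 98600 to 174000 CPM (counts scaled to the TMM-adjusted library size), and of the 8 only Asgr1, a hepatocyte lectin receptor, passed an adjusted p under 0.05, with a log2 difference of -0.34 at 6 months (SE 0.08, edgeR adjusted p = 0.0470). With 1 library left out this adjusted p was 0.0413 to 0.149 and under 0.05 in 3 of 20 refits, at log2 differences of -0.36 to -0.30. Kupffer cell markers summed to 1890 CPM in Rosa26 6 months replicate 3, against a group median of 332, and to 1170 CPM in HIRA 6 months replicate 4, against 524. Stellate cell markers summed to 578 CPM in HIRA 6 months replicate 3, against 265. At 6 months the log2 difference between guides was above 0 for 6 of 6 stellate, 4 of 4 endothelial and 6 of 6 lymphocyte markers. So it was for 4 of 5 cholangiocyte and 1 of 6 Kupffer cell markers, beside 54.3% of all genes. At 3 weeks these counts were 5 of 6, 4 of 4, 6 of 6, 3 of 5 and 4 of 6, beside 49.0%. None of these markers passed the adjusted p at either time. The part of cells other than hepatocytes in the results was not tested. Of 8 adipocyte markers, the sum was 24.7 to 51.4 CPM over the 20 libraries, and only leptin was at 0 in all of them. Fabp4 (78 to 231 counts), Adrb3 (107 to 275) and Lipe (262 to 620) were counted in every library. Adipoq, Plin1 and Retn reached at most 9, 5 and 5 counts, all in HIRA 3 weeks replicate 3, and Cfd reached 111 in HIRA 6 months replicate 5. By group, the sum was 24.7 to 35.9 CPM (Rosa26) and 32.6 to 35.8 CPM (HIRA) at 3 weeks and 27.9 to 39.4 and 29.0 to 51.4 CPM at 6 months.

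Levels between genes were compared per length, on the FPKM scale of the authors. Scd1, the desaturase that makes oleate and palmitoleate, was the most abundant, with a median of 1595 FPKM over the 20 libraries, and it lay above Fasn (median 288) in 20 of 20. Mlxipl (176) lay below Fasn in 19 of 20. From Mlxipl through Thrsp (147), Srebf1 (108) and Acly (93.0) to Me1 (70.6), each gene lay above the next in 13 or 14 of 20 libraries only, so neighbours in this part of the order changed places from liver to liver. Me1 lay above Acacb (22.7) in 20 of 20, Acacb above Elovl6 (17.2) in 14 of 20, and Elovl6 above Acaca (11.4) in 19 of 20. The gene of the cytosolic carboxylase, Acaca, was thus the lowest, and that of the mitochondrial one, Acacb, was higher. The relatives of Scd1 were named after their values were seen. Scd3 and Scd4 had 0.00204% and 0.00108% of its counts over all libraries. Scd2 had between 0.0844% (Rosa26 3 weeks replicate 4) and 4.22% (HIRA 6 months replicate 3), and it was at 6.18 to 14.1 CPM in Rosa26 and 19.2 to 57.5 CPM in HIRA at 3 weeks, without overlap, and at 14.5 to 213 and 10.8 to 531 CPM at 6 months. Its log2 differences between guides were 1.69 (SE 0.73, edgeR adjusted p = 0.496) and 1.76 (SE 0.70, edgeR adjusted p = 0.225).

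The livers of 1 group differed much in these genes. The pooled within-group SD on the log2 CPM scale was 0.89 for Thrsp, above 98.5% of the 12895 genes with a mean of at least 1 CPM, whose median was 0.20. It was 0.63 for Scd1, 0.61 for Acacb, 0.51 for Elovl6, 0.50 for Acly, 0.47 for Fasn, 0.37 for Srebf1 and 0.35 for Me1. Mlxipl and Acaca, with 0.21 each, were near the median gene. This spread sets the size of the difference that 5 livers against 5 can show.

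The comparison of HIRA with Rosa26 at 3 weeks asked whether the guide altered these genes early. None of the 10 passed an adjusted p under 0.05, with or without an absolute log2 fold change over 1 (edgeR quasi-likelihood test, Benjamini-Hochberg over 22867 genes). Over all genes, 0.197% passed the adjusted p and 0.114% passed both. The first share is 45 genes, and it was 4 to 28 with any library of this comparison left out other than HIRA replicate 3 (57), the 4 being without HIRA replicate 4 or 5. It was 27 without Rosa26 6 months replicate 4, 103 without HIRA 6 months replicate 5 and 225 with DESeq2. Of the 10 log2 fold changes, 9 were above 0, with a median of 0.34, beside 49.0% of all genes and a median of -0.01. Under the other settings and with 1 library left out, 9 or 10 were above 0 and the median was 0.28 to 0.49. An unadjusted p under 0.05 was reached by 2 of the 10 and by 8.87% of all genes. DESeq2, limma-voom and each other setting called 0 of the 10 by both thresholds as well.

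**Figure D1:**
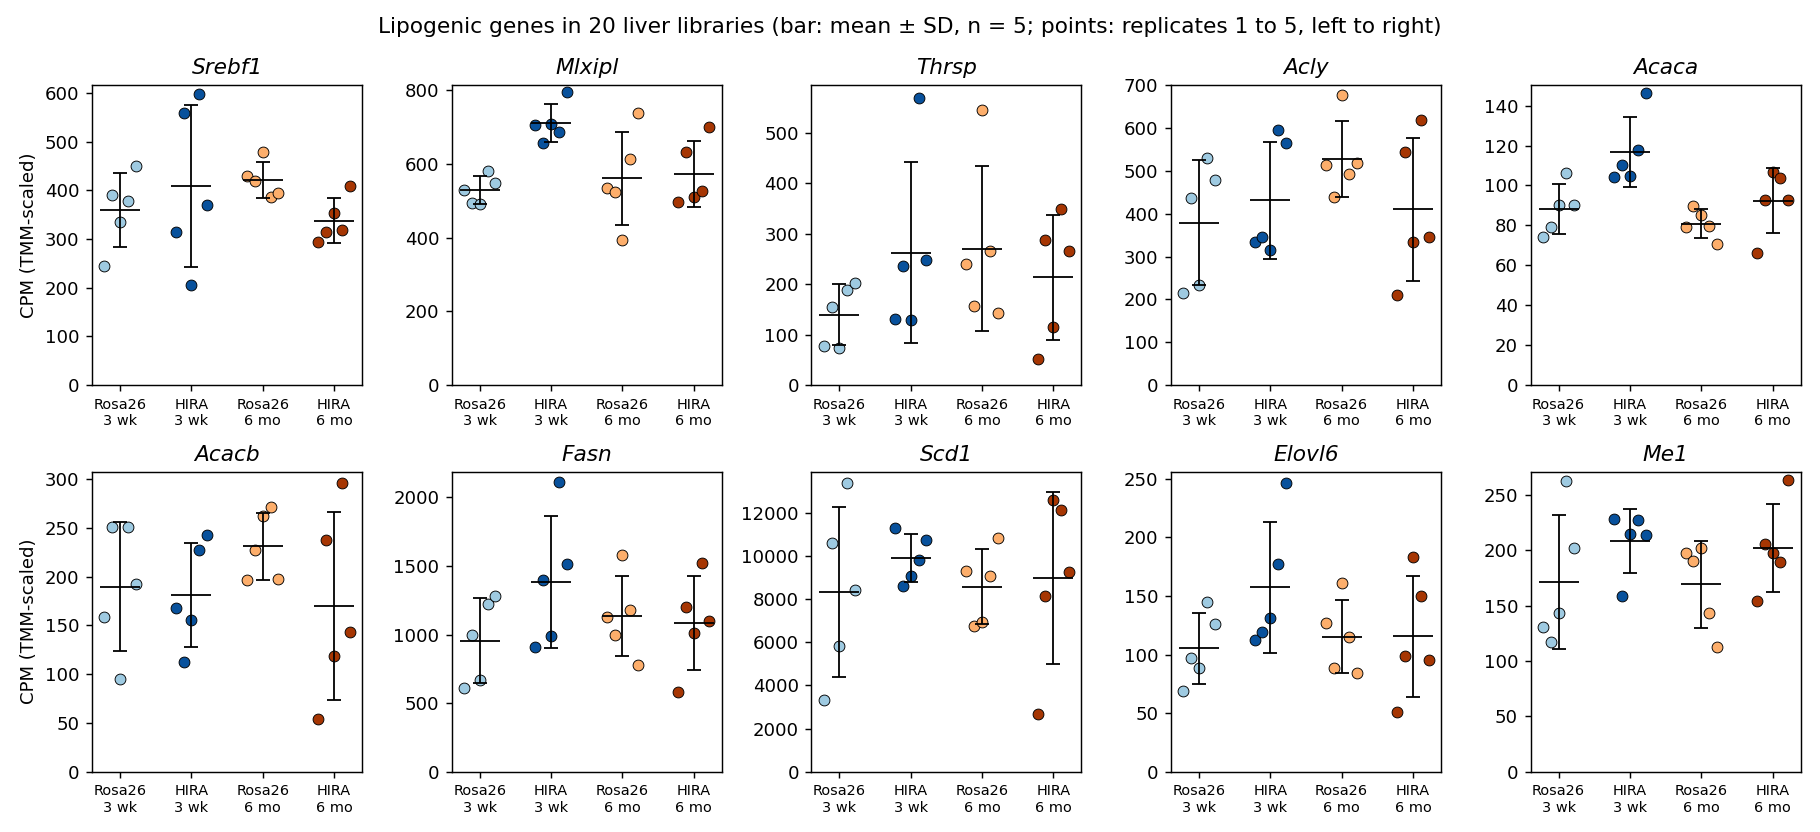
Level of each lipogenic gene (CPM, TMM-scaled, vertical axes from 0) in every library of the 4 groups on the horizontal axis, with replicates 1 to 5 from left to right and a bar for the mean ± SD (n = 5). Mlxipl at 3 weeks is the panel in which the HIRA libraries (658 to 795) all sit above the Rosa26 libraries (492 to 581); for Thrsp and Scd1 the libraries of 1 group spread widely.

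Among the regulators, Mlxipl showed the smallest spread at 3 weeks. Its level was 529.8, 494, 492, 581 and 548 CPM in Rosa26 replicates 1 to 5 and 707, 658, 709, 687 and 795 CPM in the HIRA libraries. The groups did not overlap, and Mlxipl was the only 1 of the 10 genes for which this held in this comparison, while 2.69% of all genes showed it. The means were 529 ± 37.8 and 711 ± 51.2 CPM (SD, n = 5). The difference on the log2 scale was 0.43 (SE 0.13, 95% interval 0.15 to 0.70) and its edgeR adjusted p was 0.237. With only the 10 libraries of this comparison in the edgeR fit, the adjusted p was 0.0364 at the same size, and it was 0.0615 with limma on FPKM, 0.0648 with DESeq2 and 0.124 with the replicate block. That fit was scaled and filtered anew, and 149 of its 20300 genes passed, against 45 of 22867.

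Srebf1 had 244, 391, 334, 377 and 449 CPM in Rosa26 and 314, 559, 206, 597 and 369 CPM in HIRA. The HIRA libraries spanned the whole range of the controls and beyond, and the log2 fold change was 0.19 (SE 0.21, edgeR adjusted p = 0.885), which was 0.01 without HIRA replicate 4 and 0.35 without HIRA replicate 3. Thrsp, a small protein known to track lipogenic rate in liver, had 77.6, 155, 74.2, 189 and 202 CPM in Rosa26 and 131, 237, 129, 569.6 and 247 CPM in HIRA. Its log2 difference of 0.92 (SE 0.49, 95% interval -0.10 to 1.93, edgeR adjusted p = 0.630) was the greatest of the 10, and HIRA replicate 4 was the highest liver at that time, with the next at 247 CPM. Without that library the log2 fold change was 0.42.

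Acaca, which encodes the carboxylase that makes the malonyl-CoA for synthesis, had 74.1, 79.2, 90.4, 106 and 90.1 CPM in Rosa26 and 104, 110.0, 105, 118 and 146 CPM in HIRA. Only the highest Rosa26 library overlapped the HIRA range. The log2 fold change was 0.40 (SE 0.13, 95% interval 0.15 to 0.66) with an edgeR adjusted p of 0.238. Counts of the antisense gene Gm11437, which overlaps Acaca, came to 6.13% of those of Acaca, and whether the counting used strand was not stated.

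Fasn, the synthase itself, had 612, 994, 666, 1226 and 1277 CPM in Rosa26 and 911, 1394, 989, 2109.8 and 1515 CPM in HIRA. The log2 fold change was 0.54 (SE 0.26, edgeR adjusted p = 0.577), and the 2 lowest HIRA livers lay below the highest 3 controls. It was 0.33 without HIRA replicate 4. Elovl6, the elongase that takes palmitate to stearate, had 69.2, 97.4, 88.9, 144 and 126 CPM in Rosa26 and 112, 119, 132, 177 and 246 CPM in HIRA. Its log2 fold change was 0.58 (SE 0.28, edgeR adjusted p = 0.573), with 2 Rosa26 livers inside the HIRA range, and 0.36 without HIRA replicate 5.

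Scd1 ranged from 3319.7 to 13360.5 CPM in Rosa26 (median 8410.2) and from 8579 to 11302 CPM in HIRA (median 9793). The control livers lay on both sides of the HIRA livers, and the log2 fold change was 0.25 (SE 0.33, edgeR adjusted p = 0.913). Acly, the citrate lyase, ranged from 215 to 531 CPM in Rosa26 and from 316 to 595 CPM in HIRA, and Me1, the malic enzyme that supplies NADPH, from 117 to 262 and from 159 to 228 CPM. Their log2 fold changes were 0.19 and 0.28. Without Rosa26 replicate 4, Scd1, Acly and Me1 came to 0.49, 0.34 and 0.49, without Rosa26 replicate 1 Scd1 and Acly came to 0.05 and 0.04, and without Rosa26 replicate 2 Me1 came to 0.17. Acacb, whose product makes the malonyl-CoA that restrains fatty acid oxidation at mitochondria, ranged from 94.8 to 251 CPM in Rosa26 and from 113 to 243 CPM in HIRA, and its log2 fold change of -0.07 was the only 1 of the 10 below 0. It was -0.24 without Rosa26 replicate 3 and 0.06 without HIRA replicate 2.

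At 6 months the comparison of HIRA with Rosa26 again gave 0 of 10 genes past the adjusted p, beside 1.31% of all genes, and 0 past both thresholds, beside 0.332%. The first share is 299 genes, and it was 49 without Rosa26 replicate 4, 104, 190 and 184 without Rosa26 replicates 1, 3 and 5, 140 without HIRA replicate 1, 895 with DESeq2 and 0 with only the libraries of this comparison. No member reached an unadjusted p under 0.05, beside 15.5% of all genes, and the lowest edgeR adjusted p was 0.500. The log2 fold changes lay on both sides of 0, with 5 above it and a median of -0.03, beside 54.3% of all genes above 0 and a median of 0.03. Under the other settings and with 1 library left out, 3 to 6 were above 0 and the median ran from -0.16 (without HIRA replicate 4) to 0.08 (without HIRA replicate 1), so neither its sign nor its size held. None of the 10 had groups without overlap, and 3.15% of all genes did.

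Of the regulators at 6 months, Srebf1 had 430.2, 419, 478, 387 and 394 CPM in Rosa26 and 294, 314, 354, 318 and 409.6 CPM in HIRA. HIRA replicate 5, the library that stood apart by sex-linked transcripts, was the only HIRA library inside the Rosa26 range. The log2 fold change was -0.32 (SE 0.21, 95% interval -0.75 to 0.12, edgeR adjusted p = 0.502), and it was -0.40 without that library. Mlxipl had 535, 525, 394, 613 and 739.7 CPM in Rosa26 and 497, 634, 511, 527 and 700.5 CPM in HIRA, which overlapped widely, with a log2 difference of 0.03 (SE 0.13, 95% interval -0.24 to 0.30). Thrsp ranged from 142 to 547 CPM in Rosa26 and from 51.5 to 349 CPM in HIRA, at a log2 fold change of -0.34 (SE 0.48). Without Rosa26 replicate 3, the highest library and the 1 with the high Kupffer cell markers, this was 0.09, and without HIRA replicate 4 it was -0.59.

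For the carboxylases at 6 months, Acacb had 197, 227, 262, 271 and 197 CPM in Rosa26 and 54.1, 238, 119, 295 and 143 CPM in HIRA. In HIRA 3 livers lay below every control and 1 above, and the log2 fold change was -0.44 (SE 0.33, 95% interval -1.12 to 0.24, edgeR adjusted p = 0.561). It was -0.22 without HIRA replicate 1 and -0.74 without HIRA replicate 4. Acaca ranged from 70.5 to 89.6 CPM in Rosa26 and from 65.9 to 107 CPM in HIRA, at a log2 fold change of 0.19 (SE 0.12). Acly had 513, 440.2, 678, 493 and 518 CPM in Rosa26 and 210.4, 544, 333, 619 and 346 CPM in HIRA, at -0.36 (SE 0.28, edgeR adjusted p = 0.582), which was -0.20 without HIRA replicate 1 and -0.56 without HIRA replicate 4.

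HIRA replicate 1 was the lowest of the 5 HIRA libraries at 6 months for each of the 10 genes. Scd1 was 2683 CPM in it, against 8119 to 12604 CPM in the other 4 HIRA livers and 6738 to 10827 CPM in Rosa26. Fasn was 579 CPM in it and 1011 to 1524 CPM in the others, and Elovl6 was 51.2 and 95.4 to 183 CPM. At 6 months the differences on the log2 scale were -0.07 for Fasn (SE 0.26), 0.06 for Scd1 (SE 0.33), 0.01 for Elovl6 (SE 0.28) and 0.25 for Me1 (SE 0.20). Without this library they were 0.08, 0.29, 0.18 and 0.33, and Me1 was 0.14 without Rosa26 replicate 5.

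**Figure D2:**
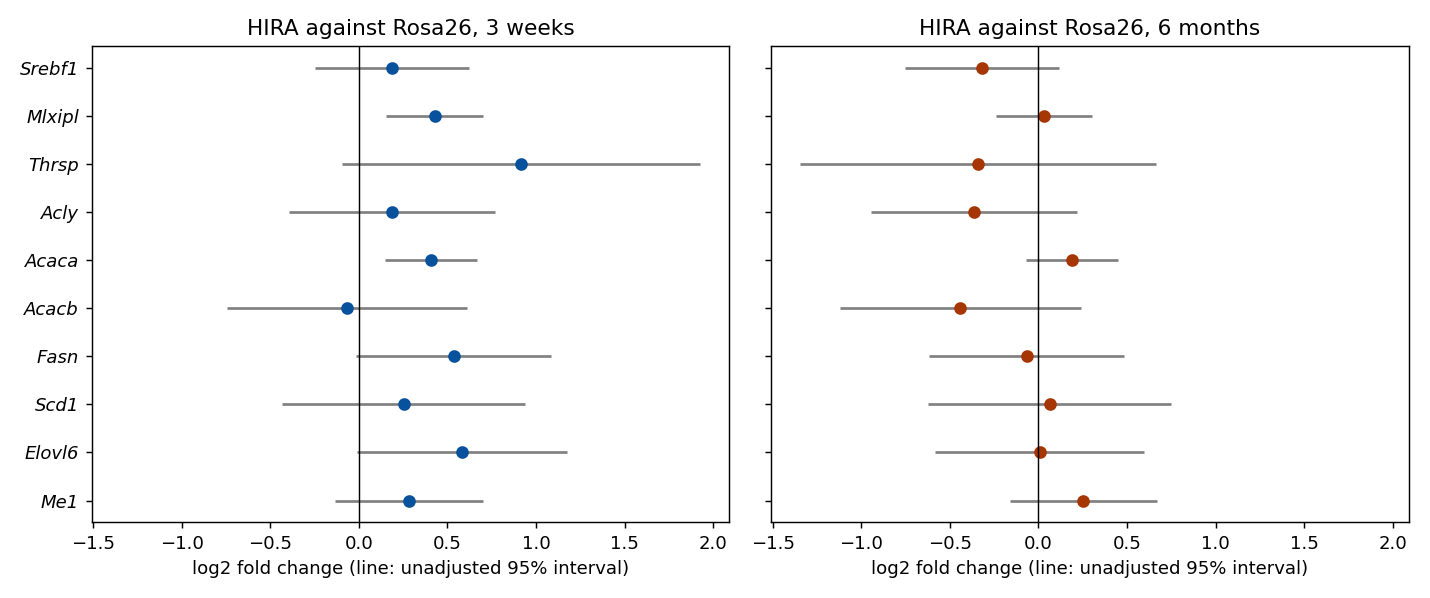
Log2 fold change of HIRA against Rosa26 (horizontal axis) for each of the 10 genes (vertical axis) at 3 weeks (left) and 6 months (right), from edgeR on all 20 libraries, with unadjusted 95% intervals as lines. At 3 weeks 9 of 10 points lie above 0 and the intervals of Mlxipl and Acaca do not reach 0; at 6 months 5 of 10 lie above 0 and every interval includes 0.

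The change of the guide effect from 3 weeks to 6 months was tested as an interaction. It was below 0 for all 10 genes in the edgeR fit, with a median of -0.45 on the log2 scale, beside 54.4% of all genes above 0 and a median of 0.03. No member passed the adjusted p (lowest 0.746) or both thresholds, and neither did any gene of the table (0.0% for each rule). The value was -1.26 for Thrsp (SE 0.68), -0.60 for Fasn (SE 0.37), -0.57 for Elovl6 (SE 0.40) and -0.40 for Mlxipl (SE 0.19, unadjusted p = 0.0451, adjusted p = 0.746). Under the other settings and with 1 library left out, 0 to 2 of the 10 values were above 0. Without HIRA 3 weeks replicate 4, Thrsp came to -0.76, Fasn to -0.40 and Srebf1 from -0.51 to -0.33, and without HIRA 3 weeks replicate 5 Elovl6 came to -0.35. An effect at 3 weeks that differs from that at 6 months was therefore not shown for any of these genes.

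Time after injection was compared within each guide. In Rosa26, 8 of 10 genes had a log2 fold change above 0 from 3 weeks to 6 months (median 0.18, from -0.12 for Acaca to 0.96 for Thrsp), and 0 of 10 passed the adjusted p or both thresholds, beside 0.324% and 0.162% of all genes. Of all genes, 50.4% were above 0. The 0.324% is 74 genes, and it was 1, 16, 4 and 122 without Rosa26 3 weeks replicates 1, 3, 4 and 5, 49, 136, 12, 3 and 45 without Rosa26 6 months replicates 1 to 5, 140, 116 and 213 without HIRA 6 months replicates 1, 3 and 5, and 506 with DESeq2. In HIRA all 10 were below 0 (median -0.29, from -0.44 for Elovl6 to -0.05 for Me1), again with 0 of 10 past either rule, beside 0.0656% and 0.0569%, and 55.4% of all genes were above 0. Here 15 genes passed the adjusted p, and 5 to 8 did with any HIRA library of 3 weeks left out, 31 and 28 without HIRA 6 months replicates 3 and 5, and 143 with DESeq2. Under the other settings and with 1 library left out, 7 to 9 of the 10 were above 0 in Rosa26 and 0 to 4 in HIRA, the 4 being without HIRA 6 months replicate 1 (median -0.12). Without HIRA 3 weeks replicate 4, 3 were above 0, with the same median to 2 decimals, and without HIRA 3 weeks replicate 5 or HIRA 6 months replicate 3, 2 were. In Rosa26, Thrsp was 0.53 without Rosa26 6 months replicate 3 and Acaca -0.05 without Rosa26 3 weeks replicate 4, and Elovl6 in HIRA was -0.23 without HIRA 3 weeks replicate 5. Unadjusted p-values were under 0.05 for 0 and 2 of the 10, beside 12.8% and 8.95% of all genes, the 2 being Acaca (-0.34, SE 0.12, edgeR adjusted p = 0.410) and Mlxipl (-0.31, SE 0.13, edgeR adjusted p = 0.502). No member had groups without overlap in either comparison, while 3.5% and 1.47% of all genes did. The comparison of HIRA with Rosa26 at 3 weeks and that of times in Rosa26 share the Rosa26 libraries of 3 weeks, in which replicates 1 and 3 were the lowest 2 of 5 for Srebf1, Thrsp, Acly, Fasn, Scd1, Elovl6 and Acacb.

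Within groups the genes varied together from liver to liver. Deviations of log2 CPM from the group mean were correlated over the 20 libraries for all 45 pairs, with permutation of libraries within groups (100000, 2-sided) and Benjamini-Hochberg adjustment over the 45. Pearson's r had an adjusted p under 0.05 in 17 pairs, all of them positive, and Spearman's rho in 13. The median r was 0.55, and 40 of 45 were above 0.

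Thrsp and Fasn were the closest pair, with r = 0.952 (permutation p = 1e-05, the smallest that the permutations can give, adjusted p = 0.00015) and rho = 0.944 (adjusted permutation p = 0.00045). Without the 2 libraries farthest from the median of Thrsp, r was 0.928. Acly, which supplies the acetyl-CoA, had r = 0.891 with Fasn (rho 0.89), 0.861 with Thrsp (rho 0.839) and 0.86 with Acacb (rho 0.829), with adjusted permutation p-values for r of 0.00015, 0.00015 and 0.00153. Without the 2 farthest libraries these were 0.847, 0.814 and 0.8. Acaca was closest to Elovl6 (r = 0.861, rho = 0.797, adjusted permutation p = 0.0009 and 0.00315, and r = 0.764 without the 2 farthest).

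Of the factors, Srebf1 had adjusted p-values under 0.05 with 2 of 9 partners. These were Fasn (r = 0.644, rho = 0.62, adjusted permutation p = 0.0141 and 0.0344, and r = 0.584 without the 2 farthest) and Thrsp (r = 0.599, rho = 0.632, adjusted permutation p = 0.0141 and 0.0269, and r = 0.5 without the 2 farthest). Mlxipl had 0 of 9, with r from -0.11 to 0.32. Without the 2 libraries farthest from its median, its r was 0.228 to 0.54 with the 8 partners other than Srebf1. Among them were 0.54 with Me1, 0.457 with Acacb, 0.448 with Thrsp, 0.347 with Acly and 0.315 with Fasn, so its values near 0 with these partners rested on those libraries. With Scd1 its r went from 0.321 to 0.287. Its r with Srebf1 was -0.0925, and -0.103 without the 2 libraries farthest from the median of Srebf1. A level of mRNA does not report how much SREBP-1c or ChREBP is active, since both are also controlled after transcription.

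**Figure D3:**
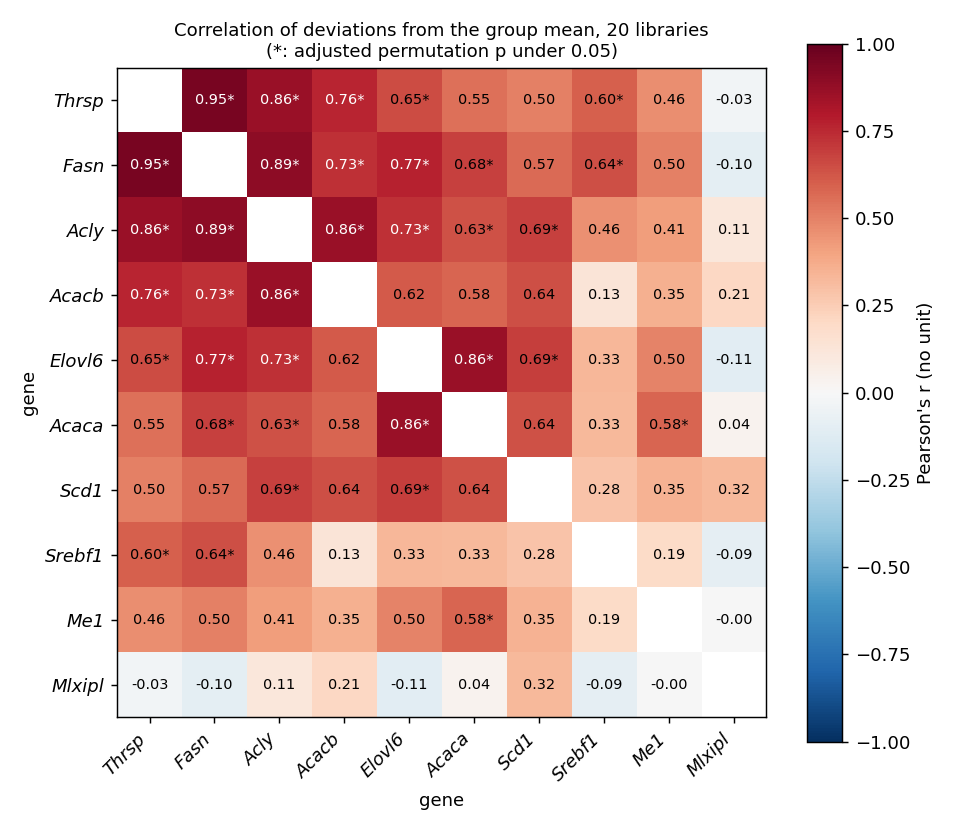
Pearson's r between each pair of the 10 genes (both axes) for deviations of log2 CPM from the group mean over 20 libraries, on a colour scale from -1 to 1, with stars for an adjusted permutation p under 0.05. Thrsp, Fasn, Acly and Acacb form the block with r from 0.73 to 0.95, and the row of Mlxipl lies between -0.11 and 0.32.

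The count of pairs depended on single livers. HIRA 6 months replicate 1 had 10 of 10 genes below its group mean, by 0.87 on average on the log2 scale, and without it 11 of 45 pairs had an adjusted p under 0.05 for r and the median r was 0.36. The highest r was then 0.936. Without Rosa26 3 weeks replicate 1, 10 pairs passed (median r 0.49), and without each of the other libraries in turn, 13 to 22 did. Rosa26 replicates 1 and 3 at 3 weeks each had 9 of 10 genes below the group mean, by 0.50 and 0.36.

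The state of clock genes is given beside these results. A clock index was taken as the mean centred log2 CPM of 10 genes that peak near lights-off minus that of 5 that peak near lights-on. It was -2.47 to -1.52 in Rosa26 and -1.03 to 2.58 in HIRA at 3 weeks, without overlap, and -0.31 to 1.89 and -1.56 to 2.55 at 6 months. Within Rosa26 at 3 weeks it was -2.47, -2.12, -1.70, -2.09 and -1.52 in replicates 1 to 5, where the members' mean deviation was -0.50, 0.11, -0.36, 0.46 and 0.29, so the lowest liver was the same by both and replicates 3 and 4 were ordered differently. Dbp, a clock output factor of the evening, was at 1.52 to 3.54 CPM in Rosa26 and 9.05 to 104 CPM in HIRA at 3 weeks (log2 fold change 4.55, SE 0.79, edgeR adjusted p = 0.0252). Of the 10 evening genes, 5 passed the adjusted p in HIRA against Rosa26 at 3 weeks, all higher in HIRA (Dbp, Ciart, Per3, Nr1d2 and Tef), beside 0.197% of all genes. From 3 weeks to 6 months in Rosa26, 4 passed, all higher at 6 months (Dbp, Per3, Nr1d2 and Tef), beside 0.324%. None of the 10 passed between guides at 6 months, over time in HIRA or for the change of the guide effect. None of the 5 genes that peak near lights-on passed in any comparison.

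The counts of 5 and 4 evening genes rested on single libraries, which were left out in turn after the data were seen. At 3 weeks 0 to 6 evening genes passed, with 0 without Rosa26 replicate 1, 2 or 4 or HIRA replicate 4 or 5, and 1 without Rosa26 replicate 3 or HIRA replicate 1. For time in Rosa26 0 to 5 passed, with 0 without Rosa26 3 weeks replicate 1, 3 or 4 or Rosa26 6 months replicate 3 or 4, and 1 without Rosa26 3 weeks replicate 2. The log2 difference of Dbp at 3 weeks stayed between 4.11 and 4.81, at edgeR adjusted p-values of 0.00527 to 0.077, and that over time in Rosa26 between 3.95 and 4.65, at 0.0079 to 0.0882.

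Correlated within groups, an addition made after these values were seen, the clock index had its highest r with Thrsp (r = 0.838, rho = 0.737, adjusted permutation p over 10 genes 0.0018 and 0.0119). It was 0.741 with Fasn (rho 0.687, adjusted permutation p = 0.003 and 0.0128), 0.654 with Acly (rho 0.556, adjusted permutation p = 0.0085 and 0.0598) and -0.0454 with Mlxipl (adjusted permutation p = 0.864). Without the 2 libraries farthest from its median, r was 0.727, 0.59, 0.5 and -0.2, and without HIRA 6 months replicate 1 it was 0.763, 0.64, 0.525 and -0.25. For all of Acaca, Scd1, Elovl6 and Me1 the adjusted p of r was above 0.05, and for Srebf1 and Acacb it was 0.047 and 0.0349, with rho of 0.392 and 0.532 (adjusted permutation p of rho = 0.155 and 0.0779). The part of the clock state in the differences between groups was not tested.

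**Figure D4:**
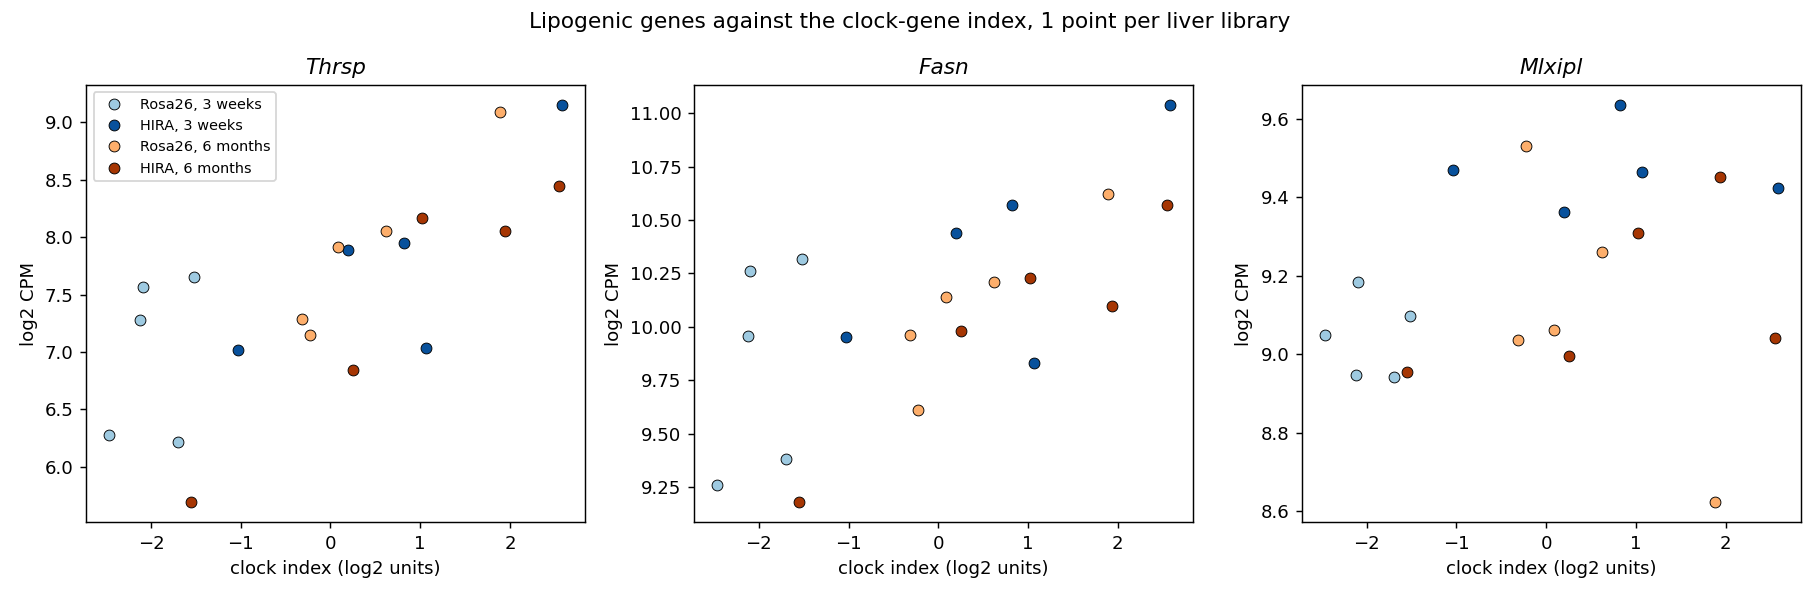
Log2 CPM (vertical axes) of Thrsp, Fasn and Mlxipl against the clock index of the same library (horizontal axes, log2 units), 1 point per library, coloured by group. The 5 Rosa26 libraries of 3 weeks lie at -2.47 to -1.52 on the horizontal axis, left of every other library except HIRA 6 months replicate 1, which sits at -1.56 with the lowest Thrsp value.

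The rest of the pathway was read from lists of genes that are not among the 10. In HIRA against Rosa26 at 3 weeks, 0 of 18 genes of SREBP processing and lipogenic transcription, 0 of 12 of the control of acetyl-CoA carboxylase, 0 of 14 of citrate, acetyl-CoA and NADPH supply, 0 of 18 elongases, desaturases and acyl-CoA synthetases and 0 of 14 of triglyceride synthesis passed the adjusted p. The same was true of 0 of 12 glycolytic targets of ChREBP, 0 of 8 LXR targets, 0 of 13 genes of insulin signalling and 0 of 14 of the fasting response. Medians of these lists lay between -0.19 and 0.13 on the log2 scale.

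The 14 genes of the fasting response, which liver raises when food is withdrawn and lipogenesis falls, had none past the adjusted p in any comparison. Their median log2 difference was -0.19 at 3 weeks (6 of 14 above 0) and 0.18 at 6 months (10 of 14). From 3 weeks to 6 months it was -0.44 in Rosa26 (3 of 14) and 0.01 in HIRA (7 of 14). The change of the guide effect had a median of 0.70 (11 of 14). Of all genes, 49.0, 54.3, 50.4, 55.4 and 54.4% were above 0 in the same order. An unadjusted p under 0.05 was reached by 3, 5, 6, 2 and 4 of the 14, beside 8.87, 15.5, 12.8, 8.95 and 6.62% of all genes. The counts of this list were not repeated with a library left out. For the 10 lipogenic genes the medians were 0.34, -0.03, 0.18, -0.29 and -0.45 in the same order. The comparisons share libraries, and the part of feeding state in the results was not tested.

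Of 12 other SREBP-1c targets, some of which are also in the lists above, 0 passed at 3 weeks. Of their log2 fold changes, 12 of 12 were above 0, beside 49.0% of all genes, and the median was 0.23. At 6 months 0 passed, 2 of 12 were above 0, beside 54.3% of all genes, and the median was -0.25. From 3 weeks to 6 months 12 of 12 were above 0 in Rosa26 (median 0.39), beside 50.4%, a comparison that shares the 3-week Rosa26 libraries with the first. In HIRA 3 of 12 were above 0 (median -0.10), beside 55.4%, and none passed the adjusted p in either. These counts were not repeated with a library left out. Angptl8, a feeding-induced secreted inhibitor of lipoprotein lipase, and Mid1ip1, a partner of Spot 14 that activates acetyl-CoA carboxylase, were chosen after their values were seen. Angptl8 had a log2 difference of 1.24 (SE 0.37, edgeR adjusted p = 0.219) at 3 weeks and 0.10 at 6 months, and Mid1ip1 0.80 (SE 0.22, edgeR adjusted p = 0.156) and -0.01. Insig2, which holds SREBPs in the endoplasmic reticulum and was chosen in the same way, had -0.65 (SE 0.15, edgeR adjusted p = 0.0835) and -0.05.

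At 6 months 1 gene of these lists passed, Elovl3, an elongase of very long chains that is known to differ between the sexes in mouse liver. It was at 0.0459 to 2.18 CPM in Rosa26 and at 1.10, 3.19, 0.498, 3.33 and 120 CPM in HIRA replicates 1 to 5 (log2 fold change 4.46, SE 1.11, edgeR adjusted p = 0.0492). The high value was that of the library set apart by sex-linked transcripts, and without it the log2 fold change was 0.80 (SE 0.57, edgeR adjusted p = 0.502). With each library left out in turn, the edgeR adjusted p of Elovl3 was 0.0316 to 0.502 and under 0.05 in 4 of 20 refits. In the remaining contrasts no gene of the pathway and fasting lists passed.

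The genes most alike to the mean of the 10, among 12885 others with at least 1 CPM and by Pearson's r of deviations over 20 libraries, were Echdc1 (0.944), which clears a side product of acetyl-CoA carboxylase action, Chrna4 (0.927), Slc25a44 (0.911), Mbnl2 (0.903) and Aacs (0.891), which activates acetoacetate for lipid synthesis. Idh1 (0.862), a cytosolic source of NADPH, Sc5d (0.861), an enzyme of sterol synthesis, Paox (0.845), Pstpip2 (0.831) and Pafah2 (0.826) followed. These are the highest of many values and carry no test. None of them passed the adjusted p in HIRA against Rosa26 at 3 weeks, and at 6 months Paox, a polyamine oxidase, did, with -0.67 on the log2 scale (edgeR adjusted p = 0.0263, and 0.0175 to 0.0824 with 1 library left out, under 0.05 in 15 of 20 refits).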

How the data were processed

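PolyA RNA-seq was analysed for 20 liver libraries in 4 groups of 5, assigned by the sample titles. The authors aligned reads to mm10 with STAR and deposited whole-number counts per gene, not normalized; the study's text names HOMER for counting, and the submitters' processing notes name HTSeq and Cufflinks. The deposited FPKM values are per length and depth, and their maker is not given in the sources used here. Counts were tested with the edgeR 4.0.16 quasi-likelihood test (R 4.3.3, TMM, all 20 libraries, group means, genes with at least 10 counts in total). A call needs an adjusted p under 0.05 and an absolute log2 fold change over 1. Confidence intervals are at 95%, unadjusted. CPM used TMM-scaled sizes, and log2 CPM a prior count of 2. Alternatives were DESeq2 1.42.0, limma 3.58.1 (voom, and FPKM as log2(FPKM + 1)), other scalings, filters, a replicate block and each library left out. The scripts were tested on simulated data.

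The genes named are the 10 members, list genes past the adjusted p, and the 10 other genes of at least 1 CPM whose deviations correlate best with the members' mean; any others are named as chosen after their values were seen or as technical checks. Members and lists were chosen with earlier results of these data known. Replicates are independent per the series design, and none of 40 pairs of replicates of the same group agreed within sampling noise (chi-square per degree of freedom 13.7 to 109). Of the identifiers, 98.5% matched GENCODE M21.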

Additional observations from a re-analysis of the deposited data

Results flagged for a closer look

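Of 40 sets of 5 libraries (10 genes in 4 groups), 2 held a library whose gap to its nearest neighbour took more of the range than Dixon's 95% critical value of 0.71 allows. Chance alone is expected to give about 1 in 20. Scd1 in HIRA at 6 months had its lowest library, replicate 1 with 2683 CPM, at a gap of 0.716 of the range of log2 CPM, and the other 4 libraries lay at 8119 to 12604 CPM. Me1 in HIRA at 3 weeks had its lowest library, replicate 2 with 159 CPM, at a gap of 0.825 of the range, and the other 4 lay at 214 to 228 CPM. The same HIRA library at 6 months had a clock index of -1.56, against 0.25 to 2.55 in the other 4 of its group, and the part of this in the low Scd1 value was not tested. No member passed the adjusted p for a change of the guide effect with time.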

How the results depend on the processing

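No member was called by both thresholds under any of the 29 other settings in the comparisons that each allows (the fit on only the libraries of a contrast gives no change of the guide effect), and 1 passed the adjusted p alone under 1 of them. That was Mlxipl in HIRA against Rosa26 at 3 weeks with only the libraries of the contrast (0.43 on the log2 scale, edgeR adjusted p = 0.0364). In that fit 149 of 20300 genes passed, against 45 of 22867 in the main fit. The adjusted p of Mlxipl was 0.0615 with limma on FPKM, 0.0648 with DESeq2, 0.124 to 0.292 under the other settings and 0.149 to 0.488 with 1 library left out. Some signs turned. For Elovl6 at 6 months (0.01) the log2 fold change was -0.0108 with DESeq2 size factors, -0.0095 with upper-quartile scaling, -0.0106 with DESeq2, -0.0816 with limma-voom, -0.00508 with filterByExpr, -0.00109 with only the libraries of the contrast, -0.0835 with the replicate block and -0.0587 with FPKM. For Scd1 at 6 months it was -0.0894 with limma-voom, -0.0295 with the replicate block and -0.0426 with FPKM. With FPKM, Fasn at 6 months was 0.0359 and the change of the guide effect of Me1 0.00128. Me1 over time in Rosa26 (-0.02) was 0.00314 with upper-quartile scaling, 0.0152 with limma-voom and 0.0287 with the replicate block. The cause was not tested. With 1 library left out, values that turned sign ranged from -0.236 to 0.0628 for Acacb at 3 weeks, and at 6 months from -0.0725 to 0.151 for Mlxipl, -0.591 to 0.0894 for Thrsp, -0.222 to 0.0848 for Fasn, -0.0874 to 0.289 for Scd1 and -0.222 to 0.182 for Elovl6. Over time in Rosa26 they ranged from -0.0334 to 0.191 for Mlxipl, -0.156 to 0.283 for Scd1, -0.0225 to 0.27 for Elovl6 and -0.127 to 0.189 for Me1, and in HIRA from -0.55 to 0.196 for Thrsp, -0.267 to 0.0988 for Acly, -0.387 to 0.14 for Acacb, -0.287 to 0.0896 for Scd1 and -0.161 to 0.0386 for Me1. The ranges were -0.427 to 0.0393 for Scd1 and -0.236 to 0.0795 for Me1 in the change of the guide effect. Pairs of members past the adjusted p numbered 17, 24 without centring, 18 with FPKM and 10 to 22 with each library left out in turn (all but 1 of these added after seeing the data), the lowest being 10 without Rosa26 3 weeks replicate 1 and 11 without HIRA 6 months replicate 1.

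The labels give the same replicate numbers in each group. Same-numbered libraries deviated together at a correlation over 0.1 in 8 of 20 pairs (-0.329 to 0.331), so the numbers were not taken to pair the mice. The replicate block gave 0 members called in each comparison, as the fit without it did.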
